A study of Mus musculus with 62 samples.

Results

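The lungs of BALB/cJ mice were compared 72 h after a challenge with Der p 1 and after a challenge with PBS. Arrays were taken by title: those that name BALB/cJ Treated against those that name BALB/cJ Control, with the repeat arrays of a mouse averaged first. This gave 25 mice on 35 arrays, of 48 mice on 62 arrays in the series, whose other mice are C57BL/6J. The Der p 1 group (labelled Treated) held 14 male BALB/cJ mice, 6 of number series 5 and 8 of number series 6, and the PBS group (labelled Control) held 11 male BALB/cJ mice, 5 of series 5 and 6 of series 6. The number series is the first digit of the mouse number, and the labels do not say what it stands for. All 25 mice, those of the PBS group too, had been sensitised by intraperitoneal injection of 10 µg Der p 1, first on day 1 and again on day 8. The challenge followed on day 15, with 50 µg of Der p 1 or with PBS by an unstated route, and lungs were harvested on day 18. The PBS group is thus a group of sensitised mice without allergen challenge, and no unsensitised mouse was analysed here. The labels read here state no age. RNA came from the right lower lobe, inflated with embedding medium and frozen, so that each value is a mean over all cells of the lobe.

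Der p 1 is a cysteine protease of the house dust mite and one of its main allergens. In a sensitised lung, type 2 T cells and innate lymphoid cells release Il4, Il5 and Il13. Il13 and Il4 act through Il4ra and Stat6 on airway epithelium, which turns to mucus secretion, and on macrophages, which take on the alternatively activated state, while Il5 and the eotaxins bring in eosinophils. Smooth muscle and matrix change with repeated exposure.

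Values are the deposited log2 levels. A difference is Der p 1 minus PBS on the log2 scale, ± its standard error from limma with number series as a covariate, and p-values are adjusted over all 16715 transcript clusters; a gene passed at an adjusted p under 0.05. Where 3 levels are given for a group, they are the lowest, the median and the highest of its mice. Lung markers were bright in both groups: the surfactant gene Sftpc lay at 12.85 to 13.83 in Der p 1 mice and at 12.80 to 13.73 in PBS mice, and Scgb1a1 of club cells at 12.43 to 13.43 in Der p 1 mice and at 12.40 to 12.99 in PBS mice. Lists were also made for cardiac muscle (8 genes measured), skeletal muscle (9), adipocytes (11), erythroid cells (6) and mesothelium (8). With all mice, none of these lists had a member past the threshold. Without mouse633 and mouse634, described below, 1 skeletal muscle gene rose and 1 mesothelial gene fell, and no gene of the other lists passed. The mean level of the cardiac list ranged from 4.85 to 7.65 in Der p 1 mice and from 5.11 to 8.33 in PBS mice, that of the adipocyte list from 5.48 to 6.28 in Der p 1 mice and from 5.34 to 7.19 in PBS mice, and that of the mesothelial list from 6.95 to 8.45 in Der p 1 mice and from 7.32 to 8.29 in PBS mice. These levels varied among the mice of both groups, and their part in the results was not tested.

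Mouse634, labelled Treated, and mouse633, labelled Control, went against their labels. To place each mouse on genes not chosen in BALB/cJ mice, the 50 largest rises past the threshold in C57BL/6J mice were averaged in every mouse, relative to the mean of the BALB/cJ PBS mice of its number series other than mouse633. On this measure the 13 other Der p 1 mice lay at 0.68 to 2.81 and mouse634 at 0.13, while the 10 other PBS mice lay at -0.23 to 0.44 and mouse633 at 2.56. With mouse633 in the mean of series 6, mouse634 lay at -0.29 and the 13 other Der p 1 mice at 0.68 to 2.39, and mouse633 lay at 2.13 and the 10 other PBS mice at -0.62 to 0.44. Mouse633 was above the mean of the other PBS mice of its series in 50 of the 50 genes, and mouse634 in 34. Clca1 went the same way, at 6.43 in mouse634 and 12.59 in mouse633. Not every gene did: Ccna2 in mouse634 (7.13) lay above all PBS mice other than mouse633 (up to 6.76). The labels were kept, and counts and the largest differences are also given without both mice (23 mice, 13 Der p 1 and 10 PBS). Leaving out mice because of their values raises the number of genes past the threshold, and of genes whose groups do not overlap, by construction.

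**Figure D1:**
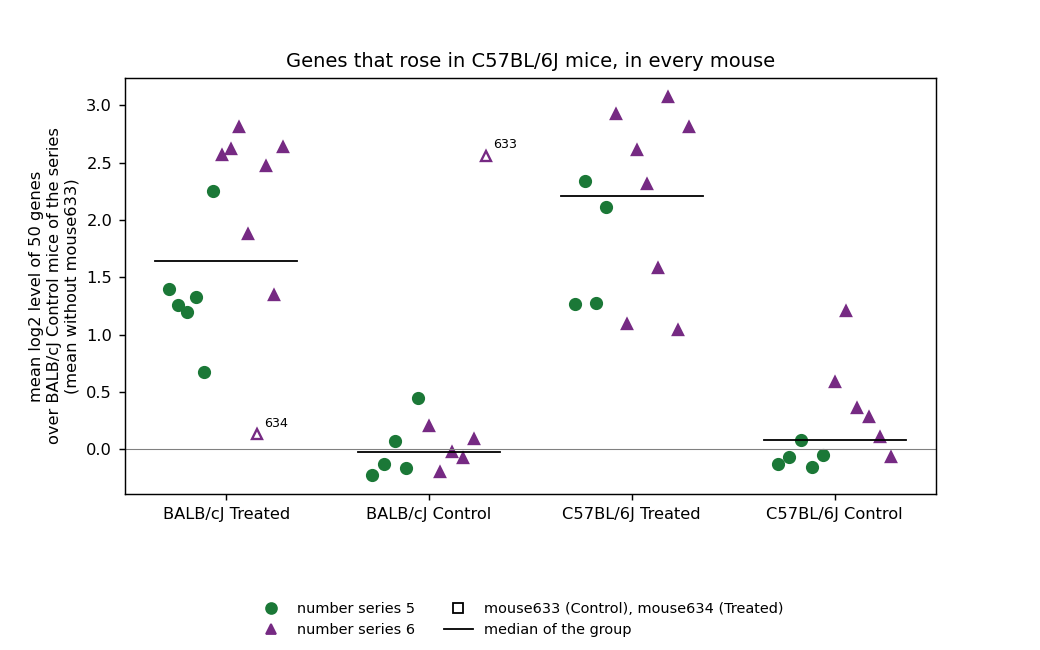
Each point is 1 mouse; the vertical axis is its mean log2 level over 50 genes that rose in C57BL/6J mice, relative to the mean of the BALB/cJ Control mice of its number series other than mouse633, and lines are group medians. In BALB/cJ, mouse634 (open, Treated) lies at 0.13 among the Control mice and mouse633 (open, Control) at 2.56 among the Treated mice.

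With all 25 mice, 404 of 16715 clusters rose (2.42%) and 109 fell (0.652%). The rises were the larger changes, with 77 past 2-fold against 0 among the falls. The median difference over all clusters was -0.03. Without mouse633 and mouse634, 1434 clusters passed, 846 of them higher (5.06%) and 588 lower (3.52%), and these included every cluster called with 25 mice. Counts of list members given below stand against these shares of all clusters, for 25 or 23 mice. The share of falls depended on scaling, with 437 higher and 222 lower after quantile normalization of the values again, and 346 higher and 158 lower after centring each mouse on its median. The count also moved over 1.5 times without single mice: to 340, 291, 261, 318, 341 and 280 without mouse513, mouse619, mouse620, mouse621, mouse623 and mouse631, and to 1035, 941 and 918 without mouse633, mouse634 and mouse636. The spread of a mouse's values over clusters (SD) was 1.74 to 2.09 in Der p 1 mice and 1.84 to 2.04 in PBS mice, and with it as a covariate 1003 clusters passed. In no cluster did the groups of all 25 mice fail to overlap (0%). Among the 23 mice, 65 clusters had every Der p 1 mouse above every PBS mouse (0.389%) and 3 had every Der p 1 mouse below (0.0179%).

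The largest rise was that of a gene of mucous epithelium. Of 21 measured goblet cell and mucus genes, 11 rose and 0 fell, with a median difference of 0.54, against 2.42% rising and a median of -0.03 over all clusters, and without mouse633 and mouse634 15 rose and 0 fell (median 0.67). Clca1, a protein secreted by goblet cells, read 6.43, 11.76 and 12.58 in Der p 1 mice and 5.12, 5.87 and 12.59 in PBS mice. Its difference was 4.76 ± 0.68 (adjusted p = 0.00133), with 13 of 14 Der p 1 mice above the PBS mean. The overlap came from the mice named above: without them Der p 1 mice ranged from 10.09 to 12.58 and PBS mice from 5.12 to 7.74, the widest gap of any named gene, and the difference was 5.74 ± 0.30. Agr2, a disulfide isomerase of the endoplasmic reticulum needed to fold mucins, read 4.68, 7.21 and 9.35 in Der p 1 mice and 4.26, 4.69 and 8.02 in PBS mice (difference 2.24 ± 0.43, adjusted p = 0.00536), and its groups did not overlap among the 23 mice either.

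Slc26a4, the anion exchanger pendrin, rose by 2.83 ± 0.52 and Bpifb1, a protein secreted onto the airway surface, by 2.47 ± 0.50. Slc26a4 was at 5.08, 8.38 and 10.30 in Der p 1 mice and at 4.63, 4.95 and 9.54 in PBS mice. Tff2, a trefoil peptide of mucous epithelium, rose by 2.11 ± 0.56, and Pigr, the receptor that carries IgA across epithelium, by 1.16 ± 0.28. Smaller rises were those of Spdef (0.54 ± 0.13), the transcription factor of goblet cells, Creb3l1 (0.58 ± 0.14), a transcription factor of secretory cells, Muc4 (0.77 ± 0.21) and Muc1 (0.30 ± 0.08), mucins anchored in the membrane, and Galnt12 (0.40 ± 0.11), which starts sugar chains on mucins. Of these 11 genes, Clca1, Slc26a4, Bpifb1, Agr2 and Pigr passed whichever single mouse was left out. The others lost their call in some of the 25 fits without 1 mouse: Tff2 in 15 (highest adjusted p = 0.082), Muc4 in 15 (0.0808), Galnt12 in 20 (0.0948) and Creb3l1 in 2 (0.0534), each highest without mouse620, Muc1 in 14 (0.0757, mouse620), and Spdef in 1 (0.0519, mouse619). Ern2, Itln1, Ltf and Tmprss4 passed only without mouse633 and mouse634. Foxa3, another transcription factor of goblet cells, did not pass in either fit (0.21 with 25 mice), and the gel-forming mucins Muc5ac and Muc5b were not analysed here. With 25 mice, lists of ciliated cells (0 of 18 past the threshold) and of epithelial junctions and keratins (0 of 20) had medians of 0.12 and 0.06. With 23 mice 2 ciliated cell genes rose, and 1 junction and keratin gene rose and 1 fell.

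**Figure D2:**
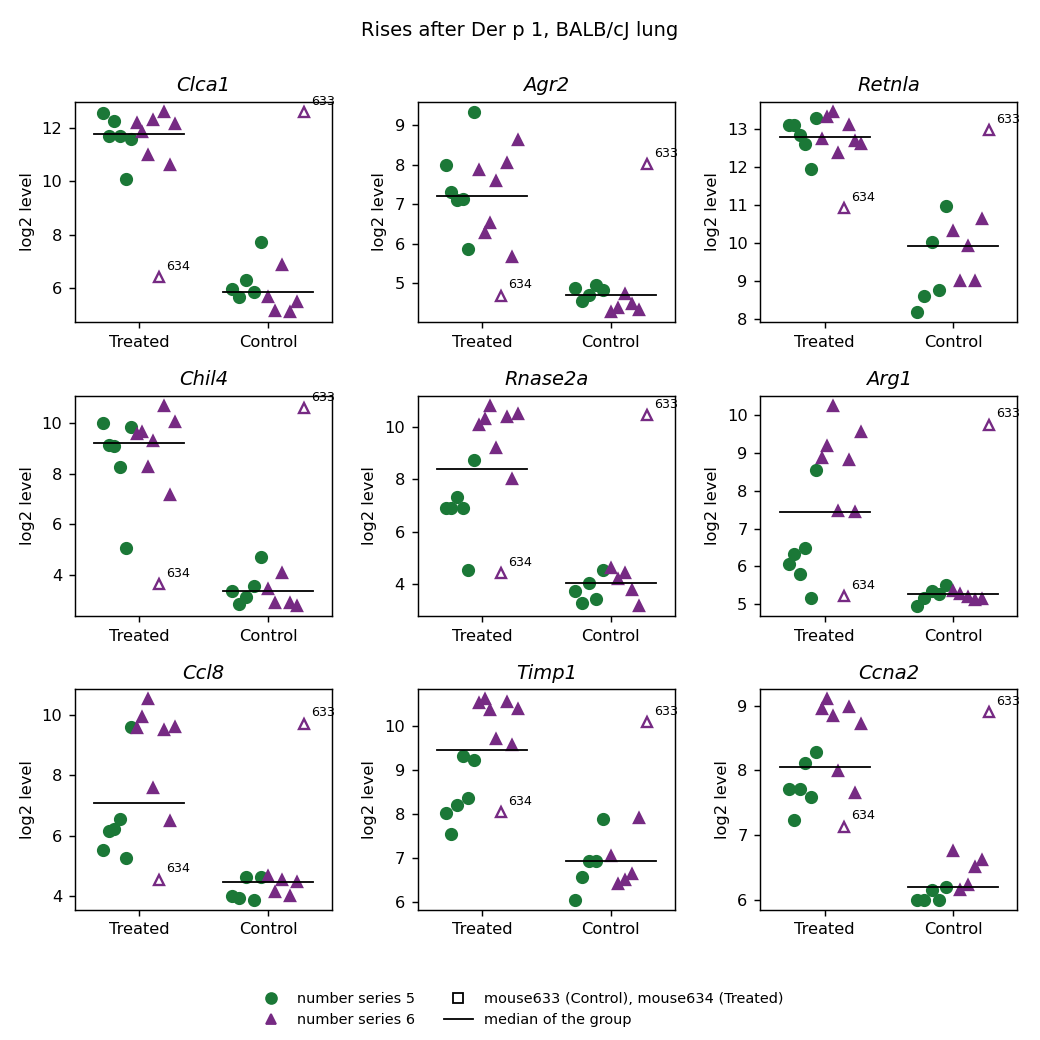
Each panel is 1 gene and each point 1 mouse of the Treated (Der p 1) or Control (PBS) group, on the deposited log2 scale, with shapes for the number series, open points for mouse633 and mouse634 and lines at the group medians. Without the open points Clca1, Agr2, Retnla, Chil4, Ccl8 and Ccna2 do not overlap between groups, whereas in Rnase2a and Arg1 the lowest Treated mouse of series 5 lies within the Control range.

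Chitinase-like and resistin-like genes, which encode secreted proteins of macrophages and airway epithelium, had the highest median of any list with 25 mice (1.24 over 8 measured genes, 5 rising and 0 falling, and 1.54 with 6 rising without mouse633 and mouse634). Chil4 read 3.62, 9.23 and 10.70 in Der p 1 mice and 2.76, 3.34 and 10.60 in PBS mice. Its difference was 4.53 ± 0.78 (adjusted p = 0.00362), and 5.57 ± 0.46 without the 2 mice. Its PBS level lay far below the median of all clusters on an array (6.41 to 6.56 in BALB/cJ mice). There the deposited values do not tell low expression from background, so both differences are between measured values and no fold of RNA is given. The same holds for Rnase2a and Ccl8 below, and for other genes dim in PBS mice, among them Agr2, Slc26a4, Arg1, Pbk and Ckap2. Retnla was bright in PBS mice already: it read 10.92, 12.79 and 13.45 in Der p 1 mice and 8.17, 9.92 and 12.97 in PBS mice (2.87 ± 0.38, adjusted p = 0.000569), and all 14 Der p 1 mice lay above the PBS mean. Chil3 rose by 2.08 ± 0.40, Retnlg, a resistin-like gene of mouse neutrophils, by 1.33 ± 0.32, and Chil1 by 0.42 ± 0.12. Chil4, Retnla and Chil3 passed in every fit without 1 mouse, while Retnlg lost its call without mouse620 (adjusted p = 0.0536) and Chil1 in 17 of 25 such fits (highest 0.0925, without mouse620). Retnlb passed only without mouse633 and mouse634 (1.47, adjusted p = 0.00118).

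Alternatively activated macrophage genes rose in 8 of 18 cases and fell in 0 (median 0.76, and 12 of 18 with a median of 0.92 without the 2 mice). Arg1, the arginase of such macrophages, read 5.16, 7.44 and 10.24 in Der p 1 mice and 4.96, 5.27 and 9.74 in PBS mice, a difference of 1.83 ± 0.51 (adjusted p = 0.0459). The PBS mice other than mouse633 stayed within 4.96 to 5.51, and the spread was in the Der p 1 group. Mmp12, macrophage elastase, read 5.72, 7.75 and 10.74 in Der p 1 mice and 5.22, 6.15 and 9.91 in PBS mice (1.84 ± 0.46). The lectin Mgl2 (1.50 ± 0.29), the lipoxygenase Alox15 (1.49 ± 0.34), the growth factor Igf1 (1.00 ± 0.21), the collagen-degrading protease Ctsk (0.96 ± 0.24), the mannose receptor Mrc1 (0.73 ± 0.20) and the chemokine Ccl22 (0.57 ± 0.16) rose as well. Mgl2, Alox15 and Igf1 passed in every fit without 1 mouse. Arg1 lost its call in 19 of 25 such fits (highest adjusted p = 0.099), Ccl22 in 19 (0.105), Mrc1 in 15 (0.0843), Mmp12 in 3 (0.0607; without mouse620, mouse621 or mouse631) and Ctsk in 2 (0.0529); the highest came without mouse620 for Arg1 and Ccl22 and without mouse631 for the others. Among general macrophage and monocyte genes 1 of 17 rose, the scavenger receptor Cd163 (1.24 ± 0.28), and 6 rose and 1 fell without the 2 mice. In tissue values of this kind, more cells of a type and more RNA of a gene per cell cannot be told apart.

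The upstream bases of Retnla and of Cd209e, a lectin of the DC-SIGN family, are shown because both hold the spaced palindrome TTCNNNNGAA preferred by Stat6, the factor that Il4 and Il13 activate. Both sequences are from RefSeq (GRCm38.p6), run 5′ to 3′ on the gene's strand over the last 200 bases before the start, at chr16:48842409-48842608 (plus strand) and chr8:3854287-3854486 (minus strand), with the motif in capitals. Cd209e rose by 1.69 ± 0.43 and lost its call in 5 of 25 fits without 1 mouse (highest adjusted p = 0.0658, without mouse620).
Retnla: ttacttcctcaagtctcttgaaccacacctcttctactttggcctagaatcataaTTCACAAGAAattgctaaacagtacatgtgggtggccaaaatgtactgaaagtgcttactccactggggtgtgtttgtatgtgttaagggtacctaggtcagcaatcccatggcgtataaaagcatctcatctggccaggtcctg
Cd209e: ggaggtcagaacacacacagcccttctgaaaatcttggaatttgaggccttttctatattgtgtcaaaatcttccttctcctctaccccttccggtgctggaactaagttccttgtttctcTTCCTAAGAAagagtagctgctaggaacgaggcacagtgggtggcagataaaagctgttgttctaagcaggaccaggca
The motif begins 145 bases before the start of Retnla and 79 before that of Cd209e. In the 250 bases before the start, 1 of the 12 largest rises with an entry in the table held it, Retnla, as did 1 of 13 of the largest falls, Slc10a6. It stood in 5.85% of all 32851 promoters in the table and in 6.2% of the 11864 measured genes with an entry. Both strands were searched, and a match describes only these letters.

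Eosinophil genes moved unevenly. Rnase2a, an eosinophil-associated ribonuclease, read 4.43, 8.37 and 10.80 in Der p 1 mice and 3.18, 4.04 and 10.45 in PBS mice, a difference of 3.64 ± 0.68 (adjusted p = 0.00493), and was the 1 of 10 listed genes that passed. The granule genes Epx (0.06), Prg3 (0.02) and Prg2 (0.53), the surface lectin Siglecf (-0.06) and the eotaxin receptor Ccr3 (0.79) did not pass with 25 mice. Epx read 4.36 to 5.41 in Der p 1 mice and 4.37 to 5.22 in PBS mice, ranges that coincide. Both ranges lie below the median of all clusters on an array (6.41 to 6.56). At such levels background and expression cannot be separated, so these values do not tell whether Epx changed. Without mouse633 and mouse634, Prg2 (0.71), Hdc (0.42) and Adgre1 (0.66) passed, and the list had 4 of 10 rising.

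Of 17 measured CC chemokines 3 rose and 0 fell (median 0.57), and 10 rose without mouse633 and mouse634 (median 0.67). Ccl8 read 4.54, 7.07 and 10.53 in Der p 1 mice and 3.87, 4.44 and 9.73 in PBS mice (2.84 ± 0.64, adjusted p = 0.013). It passed in every fit without 1 mouse. Ccl11, eotaxin-1, read 7.68, 9.63 and 11.43 in Der p 1 mice and 7.31, 7.62 and 10.76 in PBS mice (1.43 ± 0.38, adjusted p = 0.0376), and lost its call in 14 of 25 fits without 1 mouse (highest 0.0891, without mouse620). Ccl24, eotaxin-2 (1.49, adjusted p = 0.00252), Ccl7 (1.37), Ccl9 (1.27), Ccl17 (0.92), Ccl2 and Ccl12 (0.88 each) and Ccl1 (0.38) passed only among the 23 mice. Differences of Ccl5 (-0.37), Ccl20 (-0.23) and Ccl3 (0.21) did not pass in either fit. Among 16 CXC and other chemokines 0 passed with 25 mice (lowest adjusted p = 0.0562), and Cxcl9, Cxcl10, Cxcl11 and Cxcl17 rose and Cx3cl1 fell among 23 mice.

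Of 15 genes of type 2 cytokines, alarmins and their receptors, 1 rose with 25 mice and 5 with 23, and 0 fell in either. Il13 differed by 0.59 (adjusted p = 0.0538) with 25 mice and by 0.71 (adjusted p = 0.00372) with 23, and the alarmin Il33 by 0.75 (adjusted p = 0.0551) and 0.98 (adjusted p = 0.000531). Il4 (0.27), Il5 (0.20), Il9 (-0.05), Il25 (-0.10) and Tslp (-0.07) did not pass in either fit. Csf2rb, the shared receptor chain for Il3, Il5 and Csf2, rose by 0.54 ± 0.13 and was the 1 past the threshold with 25 mice; it lost its call without 4 mice (highest adjusted p = 0.063, without mouse620). Of T cell genes, the activation receptors Tnfrsf9 (1.13 ± 0.27) and Il2ra (0.82 ± 0.22) rose, 2 of 16, while Cd3e (0.23), Cd4 (0.12) and Cd8a (-0.05) did not pass. Tnfrsf9 passed in every fit without 1 mouse, and Il2ra lost its call in 13 of 25 such fits (highest adjusted p = 0.0837, without mouse620). Among B cell and plasma cell genes (15), NK and cytotoxic genes (12) and mast cell and basophil genes (12), 0 passed with 25 mice, with medians of -0.12, -0.03 and 0.09. With 23 mice 2 B cell and plasma cell genes fell, 1 mast cell and basophil gene rose and 1 fell, and 0 NK and cytotoxic genes passed. Among neutrophil genes 2 of 15 rose, Retnlg and Lcn2 (0.82 ± 0.18), and the granule and calcium-binding genes S100a8 and S100a9 differed by -0.18 each without passing.

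In the acute phase list 3 of 16 genes rose and each passed in every fit without 1 mouse. Saa3, a serum amyloid made locally, read 7.23, 9.96 and 11.87 in Der p 1 mice and 5.97, 7.11 and 10.20 in PBS mice (2.37 ± 0.46, adjusted p = 0.00583). Serpina3n, a serine protease inhibitor, rose by 1.06 ± 0.22, and Lcn2, which binds bacterial siderophores, as given above. Fibrinogen genes Fga (0.13), Fgb (0.02) and Fgg (0.02) did not pass. Reg3g, an antibacterial lectin of epithelium, read 6.70, 10.26 and 11.77 in Der p 1 mice and 4.73, 7.84 and 11.19 in PBS mice (2.11 ± 0.55); it lost its call in 11 of 25 fits without 1 mouse (highest adjusted p = 0.0732, without mouse619). Complement genes rose in 4 of 10 cases: C1qa (0.96 ± 0.21), C1qb (0.72 ± 0.20) and C1qc (0.93 ± 0.20), the chains of the recognition protein C1q, and C3ar1 (1.18 ± 0.29), the receptor for C3a. C1qb lost its call in 19 such fits (highest 0.11) and C3ar1 in 3 (0.0583), both highest without mouse620. Cd74, the chaperone of MHC class II, rose by 0.55 ± 0.13, 1 of 5 genes of its list.

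Nearly all measured cell division genes rose. Of 36 measured genes of mitosis and cytokinesis, 34 rose and 0 fell with 25 mice (median 0.95), 31 of these 34 passed whichever single mouse was left out, and all 36 rose among the 23 mice (median 1.20). Bub1 (in 12 fits), Mad2l1 (in 3) and Cenpa (in 17) lost their calls without single mice, with highest adjusted p of 0.0733, 0.055 and 0.0912, the last without mouse621 and the others without mouse620. Ccna2, cyclin A2, read 7.13, 8.05 and 9.09 in Der p 1 mice and 6.00, 6.19 and 8.90 in PBS mice (1.62 ± 0.24, adjusted p = 0.00159). Top2a, the topoisomerase that untangles replicated chromosomes, read 5.26, 7.51 and 8.69 in Der p 1 mice and 4.79, 5.18 and 8.01 in PBS mice (1.82 ± 0.33). In both genes mouse633 lay with the Der p 1 mice, and mouse634 was the lowest Der p 1 mouse. The Ccna2 level of mouse634 (7.13) was still above all PBS mice other than mouse633 (up to 6.76). Its Top2a level (5.26) was within their range (4.79 to 5.56). Mki67, the proliferation antigen, rose by 1.39 ± 0.30, the mitotic kinase Cdk1 by 1.29 ± 0.24, Prc1, which bundles the central spindle, by 1.67 ± 0.27, and Cdc20, which activates the anaphase complex, by 0.75 ± 0.17.

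Among the 10 genes with the widest gap between groups of 23 mice, Pbk, Kif20a, Top2a, Ccna2, Ckap2 and Ect2 belong to mitotic cells and the other 4 are Clca1, Retnla, Agr2 and Ccl8. Pbk, a mitotic kinase, read 6.32 to 8.18 in the 13 Der p 1 mice and 4.60 to 5.47 in the 10 PBS mice. Of the mitosis list, 19 of 36 genes separated the groups of 23 mice completely, against 0.389% of all clusters. With all 25 mice the groups overlapped in every cluster. Mouse633 and mouse634 were left out because of their values. The 50 genes that placed them include Pbk, Top2a, Ccna2, Ckap2 and Ect2, and also Clca1, Retnla, Agr2 and Ccl8. This separation is thus partly built in. Genes of DNA replication and nucleotide synthesis rose in 12 of 25 cases and fell in 0 (median 0.45), with 8 passing in every fit without 1 mouse, and 18 rose among the 23 mice. Uhrf1, which copies DNA methylation, rose by 1.05 ± 0.20, the helicase subunits Mcm6, Mcm3 and Mcm5 by 0.77 ± 0.16, 0.60 ± 0.13 and 0.58 ± 0.12, and Cdt1, which loads the helicase, by 0.42 ± 0.07. Ribosome biogenesis genes had 0 of 19 past the threshold with 25 mice (median 0.10), and 3 rose among the 23 mice.

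The upstream bases of Cdk1, Top2a and Cdc20 are printed since genes of late cell cycle share promoter letters: the element TTTGAA (cell cycle genes homology region) and CCAAT, bound by NF-Y. They are from RefSeq (GRCm38.p6), the last 200 bases before the start on the gene's strand, 5′ to 3′, at chr10:69352913-69353112, chr11:99024190-99024389 and chr4:118437344-118437543, all on the minus strand. Capitals mark TTTGAA and CCAAT on either strand (TTCAAA and ATTGG where they run the other way).
Cdk1: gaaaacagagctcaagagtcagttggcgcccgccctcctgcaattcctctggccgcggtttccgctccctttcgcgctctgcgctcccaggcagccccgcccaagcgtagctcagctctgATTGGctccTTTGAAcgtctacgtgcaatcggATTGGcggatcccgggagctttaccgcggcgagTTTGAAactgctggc
Top2a: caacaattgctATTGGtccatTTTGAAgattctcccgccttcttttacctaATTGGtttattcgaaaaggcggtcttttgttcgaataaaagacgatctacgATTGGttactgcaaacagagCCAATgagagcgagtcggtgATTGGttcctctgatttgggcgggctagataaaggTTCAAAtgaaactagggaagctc
Cdc20: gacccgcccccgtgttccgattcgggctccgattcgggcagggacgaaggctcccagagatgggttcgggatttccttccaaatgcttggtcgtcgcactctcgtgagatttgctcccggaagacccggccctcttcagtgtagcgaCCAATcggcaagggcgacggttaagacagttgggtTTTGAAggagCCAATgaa
TTTGAA begins 71 and 15 bases before the start of Cdk1, 179 and 23 before that of Top2a, and 18 before that of Cdc20. CCAAT begins 80 and 48 bases before the start of Cdk1, at 5 places in Top2a, and 53 and 8 bases before that of Cdc20, and in these sequences it overlaps no TTTGAA. Of the 31 mitosis genes with an entry in the table, 12 (38.7%) held TTTGAA and 22 (71%) held CCAAT within 250 bases. The shares were 15.2% and 39.7% of the 11864 measured genes with an entry, and 16% and 33.8% of all 32851 promoters. TTTGAA also stood in 5 of 12 (41.7%) of the largest rises with an entry, none of them a cell cycle gene: Ccl8, Chil3, Chil4, Reg3g and Rnase2a. A match is not evidence of binding.

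Matrix and smooth muscle genes rose in part, in values that are means over all cells of the lobe. Of 31 measured genes of collagens, elastic fibres and their crosslinking, 13 rose and 0 fell (median 0.35), 11 of them whichever single mouse was left out, and 18 rose among 23 mice (median 0.42). Eln, elastin, read 9.16, 10.70 and 11.40 in Der p 1 mice and 8.75, 9.18 and 10.91 in PBS mice (1.36 ± 0.21, adjusted p = 0.00167), and its 23 mice did not overlap (10.11 to 11.40 in Der p 1 mice and 8.75 to 9.73 in PBS mice). The fibrillar collagen genes Col1a1 (1.42 ± 0.26), Col3a1 (1.17 ± 0.23), Col1a2 (0.97 ± 0.20) and Col5a2 (0.86 ± 0.16) rose, as did the crosslinking enzyme Loxl2 (0.56 ± 0.11). Col5a1 and Loxl1 lost their calls in 4 and 19 of the fits without 1 mouse (highest adjusted p = 0.0536 and 0.0991, both without mouse620). Tnc, the matricellular protein tenascin C, rose by 1.11 ± 0.26, Fst, which binds activins, by 0.59 ± 0.14 and the signalling protein Wnt5a by 0.41 ± 0.10 (call lost in 6 of 25 fits without 1 mouse, highest adjusted p = 0.0628, without mouse619), whereas Postn (0.15) and Tgfb1 (0.10) did not pass.

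Timp1, an inhibitor of metalloproteinases, read 7.54, 9.45 and 10.61 in Der p 1 mice and 6.05, 6.93 and 10.09 in PBS mice (2.11 ± 0.36, adjusted p = 0.00286), and all 14 Der p 1 mice lay above the PBS mean. Adam8 (0.78 ± 0.18), Adamts12 (0.52 ± 0.13) and Mmp14 (0.59 ± 0.17) rose too, Mmp14 losing its call in 20 of 25 fits without 1 mouse (highest adjusted p = 0.0892, without mouse522). Timp2 (-0.05), Timp3 (-0.02) and Mmp2 (0.12) did not pass. In the smooth muscle list 6 of 13 genes rose and 0 fell (median 0.39), and 10 rose among 23 mice. The smooth muscle actins Actg2 (0.97 ± 0.20) and Acta2 (0.69 ± 0.14), the actin filament proteins Lmod1 (0.41 ± 0.10) and Tpm2 (0.39 ± 0.09), which passed in every fit without 1 mouse, and Tagln (0.42 ± 0.11) and the transcription factor Myocd (0.47 ± 0.13), which did not, make up the 6. Myocd lost its call in 19 such fits and Tagln in 11 (highest adjusted p = 0.0976 and 0.0726, without mouse620). Acta2 read 10.62, 11.45 and 11.92 in Der p 1 mice and 10.22, 10.72 and 11.81 in PBS mice. Among 20 receptors and regulators of airway contraction, the muscarinic receptor Chrm3 (-0.38 ± 0.10) and the endothelin receptor Ednrb (-0.54 ± 0.12) fell and the ATP-gated channel P2rx1 rose (0.66 ± 0.17). Ednrb passed in every fit without 1 mouse, and Chrm3 and P2rx1 lost their calls in 16 and 11 of 25 such fits (highest adjusted p = 0.0892, without mouse621, and 0.0743, without mouse620).

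**Figure D3:**
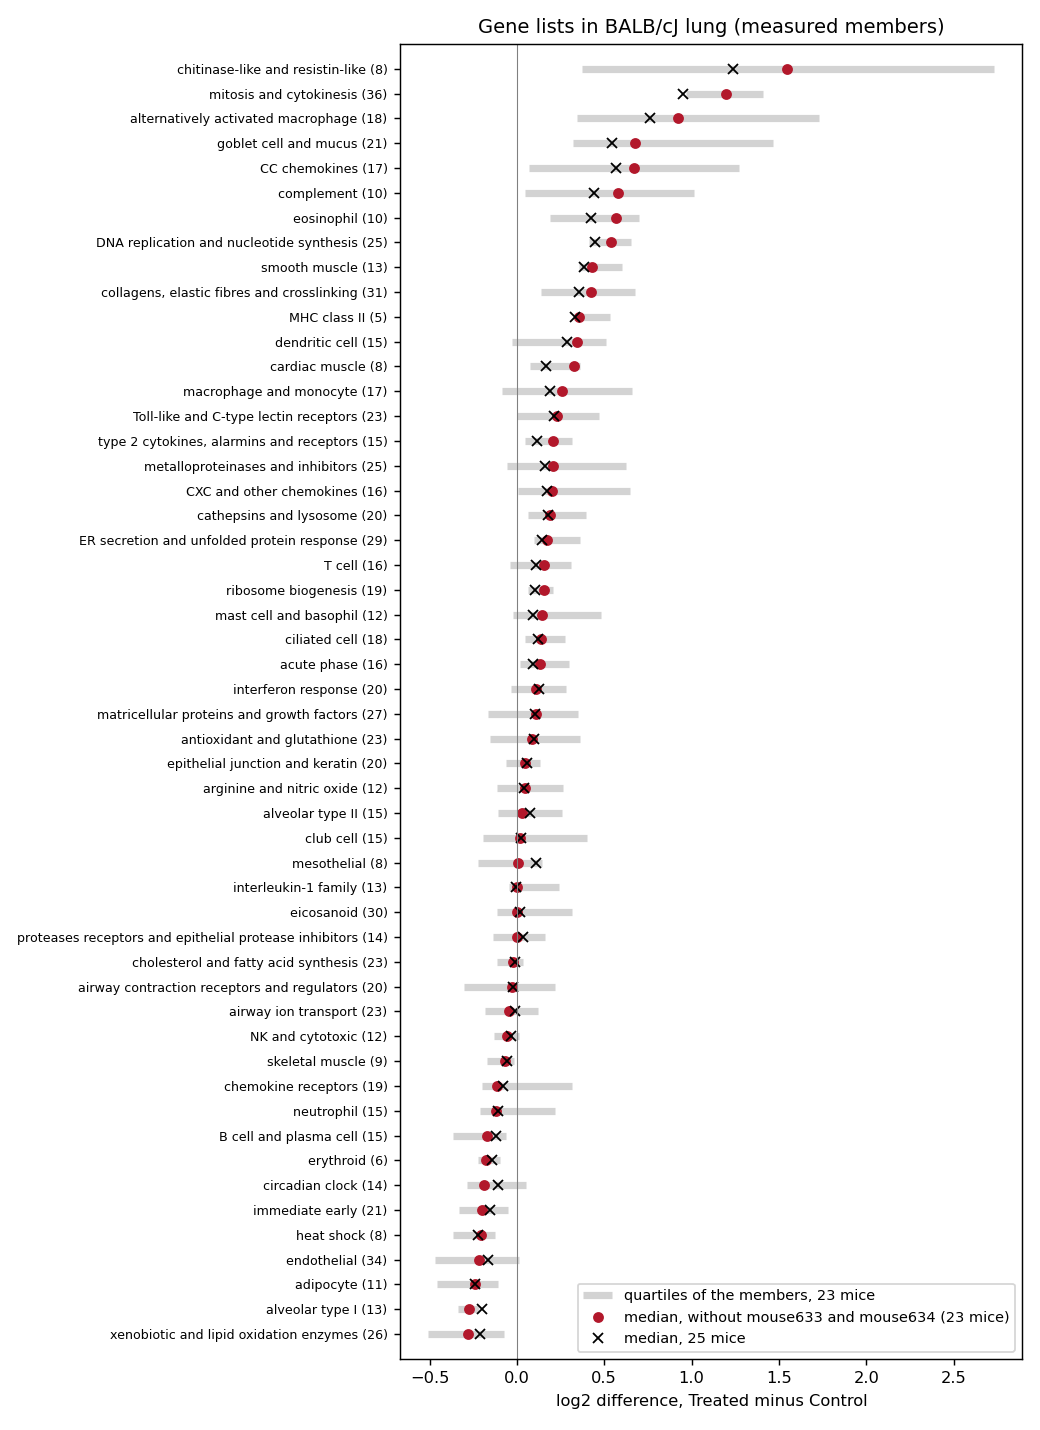
Each row is 1 gene list with its number of measured genes; the horizontal axis is the log2 difference, Treated minus Control, with crosses for medians over 25 mice, dots for medians over 23 mice and bars from the first to the third quartile of the members among 23 mice. The chitinase-like and mitosis lists lie farthest right (1.24 and 0.95 with 25 mice), and the xenobiotic, adipocyte, heat shock and alveolar type I lists farthest left (-0.21, -0.24, -0.22 and -0.20).

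The falls were small and depended more on single mice. Over the 15 largest, differences ran from -0.92 to -0.58, and 6 of the 15 passed whichever mouse was left out: Ptgfr, Slc10a6, Acoxl, Ecm2, Efnb2 and Plscr4. Ptgfr, the receptor for prostaglandin F2α, read 5.68, 6.80 and 7.44 in Der p 1 mice and 6.83, 7.47 and 7.73 in PBS mice (-0.72 ± 0.16, adjusted p = 0.0103). Slc10a6, a transporter of steroid sulfates, read 6.75, 7.33 and 8.49 in Der p 1 mice and 7.39, 7.98 and 8.64 in PBS mice (-0.72 ± 0.15). Ecm2, a matrix protein, read 5.05, 5.75 and 6.61 in Der p 1 mice and 5.88, 6.41 and 6.79 in PBS mice (-0.70 ± 0.14, adjusted p = 0.00725). In these 3 genes the groups overlapped, with 13, 13 and 12 of 14 Der p 1 mice below the PBS mean. Acoxl, an acyl-CoA oxidase-like gene, fell by 0.70 on the log2 scale, Efnb2, an ephrin of arterial endothelium, by 0.60 in 14 of 14 mice below the PBS mean, and Plscr4, of the phospholipid scramblase family, by 0.58.

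Igfbp3, which binds insulin-like growth factors, had the largest fall among named genes past the threshold with 25 mice (-0.92 ± 0.24). It read 6.18, 7.53 and 9.34 in Der p 1 mice and 7.41, 8.52 and 9.0 in PBS mice. Its highest Der p 1 mouse was mouse634 and its lowest PBS mouse mouse633. Klf15, a glucocorticoid-induced transcription factor, differed by -0.66 ± 0.17, Pcolce2, an enhancer of procollagen processing, by -0.72 ± 0.18, and Gprc6a, an amino acid-sensing receptor, by -0.74 ± 0.18. The other large falls were Bex2 (-0.88), Nrn1 (-0.77), Pamr1 (-0.73), 4930486L24Rik (-0.69) and Tafa1 (-0.58). Calls ended in 14 of 25 fits without 1 mouse for Igfbp3, 16 for 4930486L24Rik, 10 for Bex2, 9 for Pamr1, 6 for Nrn1, 5 for Klf15 and for Tafa1, 3 for Pcolce2 and 1 for Gprc6a. Their highest adjusted p were 0.0657, 0.0952, 0.0686, 0.0653, 0.0654, 0.0679, 0.0602, 0.0557 and 0.0529 in that order, without mouse619 for Nrn1, Tafa1 and Pcolce2 and without mouse620 for the others. All 15 passed among the 23 mice, where Igfbp3 differed by -1.17 ± 0.19 and Klf15 by -0.80 ± 0.16.

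**Figure D4:**
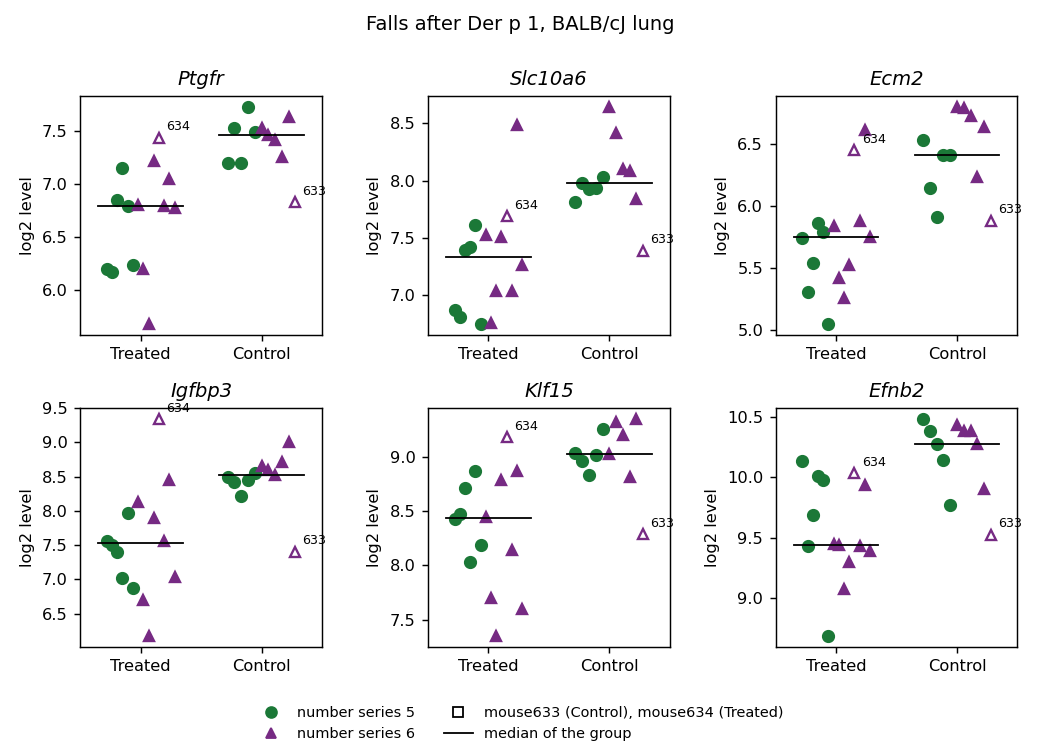
Each panel is 1 gene and each point 1 mouse of the Treated (Der p 1) or Control (PBS) group on the log2 scale, with lines at the medians and open points for mouse633 and mouse634. The groups overlap in all 6 panels, and in Igfbp3 the open points lie at 9.34 (mouse634, Treated) and 7.41 (mouse633, Control).

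Endothelial genes were divided: 4 of 34 fell and 1 rose with 25 mice (median -0.17), and 13 fell and 4 rose among 23 mice (median -0.22). The falls were Efnb2, the apelin receptor Aplnr (-0.57 ± 0.14), Ednrb and the angiopoietin receptor Tek (-0.44 ± 0.12). Selp, P-selectin, which catches leukocytes on activated endothelium, rose by 0.79 ± 0.15; it read 4.91, 6.06 and 6.48 in Der p 1 mice and 4.64, 5.10 and 6.06 in PBS mice. Selp, Ednrb and Efnb2 passed in every fit without 1 mouse, while Tek lost its call in 15 and Aplnr in 6 of 25 such fits (highest adjusted p = 0.075, without mouse620, and 0.0662, without mouse619). The pan-endothelial genes Pecam1 (0.00), Cdh5 (-0.17) and Cldn5 (-0.15) did not pass in either fit. Among the 23 mice the von Willebrand factor gene Vwf (0.55) and Sele (0.31) rose and Kdr (-0.48), Dll4 (-0.55) and Esm1 (-0.90) fell.

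Alveolar type I genes had 1 of 13 falling with 25 mice, Rtkn2 (-0.48 ± 0.12), and 5 among 23 mice (median -0.20 and -0.28); Rtkn2 lost its call without 5 mice (highest adjusted p = 0.0551, without mouse620). The type II genes Sftpb (-0.04) and Sftpc (0.25) did not pass, and Sftpd, surfactant protein D, rose by 0.37 ± 0.10. Of 26 enzymes of xenobiotic and lipid oxidation, 1 rose, Cyp1b1 (0.49 ± 0.13), and 1 fell, the flavin monooxygenase Fmo1 (-0.55 ± 0.14), with a median of -0.21. Over all clusters 2.42% rose and 0.652% fell. Among 23 mice 10 of the 26 fell, among them Pon1 (-1.23), Cyp4b1 (-0.68), Ephx1 (-0.66) and Cyp2f2 (-0.42), a cytochrome of mouse club cells, and 2 rose. Over all clusters 3.52% fell and 5.06% rose among 23 mice. Sftpd, Cyp1b1 and Fmo1 lost their calls in 13, 17 and 2 of 25 fits without 1 mouse (highest adjusted p = 0.067, without mouse631, and 0.0825 and 0.054, without mouse619). Dusp1, the phosphatase of MAP kinases, fell by 0.54 on the log2 scale and was the 1 of 21 immediate early genes past the threshold (median -0.15). Lists with 0 members past the threshold with 25 mice also included interferon response (20 genes, median 0.12), cholesterol and fatty acid synthesis (23, -0.01), circadian clock (14, -0.11), the interleukin-1 family (13, -0.01) and chemokine receptors (19, -0.08). Without mouse633 and mouse634, 2 interferon response genes rose, 2 circadian clock genes fell and 0 cholesterol and fatty acid synthesis genes passed. The interleukin-1 family and the chemokine receptors then each had 2 rises and 1 fall.

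The size of the response differed among the Der p 1 mice. On the genes chosen in C57BL/6J mice, mouse526 was lowest of the 13 (0.68) and mouse624 highest (2.81), relative to PBS mice other than mouse633. Mouse636 lay at 1.34, or at 0.92 with mouse633 in the PBS mean. Mouse526 did not respond alike in all groups of genes. Its Clca1 (10.09) and its mean over the mitosis list (5.91) lay above all PBS mice other than mouse633 (up to 7.74 and 5.28), and its collagen list (8.73) was near the top of the Der p 1 mice (8.04 to 8.76 among the 13). Its Rnase2a (4.55), Arg1 (5.16) and Mmp12 (5.72) were the lowest of the 13 Der p 1 mice and within the range of PBS mice other than mouse633 (3.18 to 4.62, 4.96 to 5.51 and 5.22 to 7.0). Its mean levels of the alternatively activated macrophage (6.93), eosinophil (5.35) and CC chemokine (5.85) lists also stayed within the range of these PBS mice. This was not particular to mouse526: the eosinophil (5.34) and CC chemokine (6.1) means of mouse517 lay within that range too. The alternatively activated macrophage mean of mouse517 (7.29) lay above it. Mouse636 had the lowest mitosis (5.69), goblet (6.67) and collagen (8.04) means of the 13. Its mitosis and goblet means were still above those of every PBS mouse other than mouse633 (up to 5.28 and 6.51), as was its CC chemokine mean (6.97, against up to 6.42), and its collagen mean was within their range (7.78 to 8.22).

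Within series 5 and series 6 most named genes moved the same way, with different sizes. Clca1 differed by 5.32 in series 5 and by 6.13 in series 6 without mouse633 and mouse634 (4.31 with them), Retnla by 3.52 and 3.13 (2.35), and Ccna2 by 1.71 and 2.15 (1.55). The difference between series was tested as an interaction with limma: 0 clusters passed with 25 mice (0%, 723 at an unadjusted p under 0.05), and 2 of 16715 passed with 23 (0.012%). These were Cd209e, larger in series 6 by 2.63 ± 0.32 (adjusted p = 0.000291), and Ccl11, larger by 2.62 ± 0.45 (adjusted p = 0.0354). Cd209e read 5.67 to 6.95 in Der p 1 mice and 5.21 to 5.75 in PBS mice of series 5, and 7.83 to 9.36 in Der p 1 mice and 5.03 to 5.34 in PBS mice of series 6 without the 2 mice. Ccl11 read 7.68 to 9.15 in Der p 1 mice and 7.37 to 8.80 in PBS mice of series 5, and 10.11 to 11.43 in Der p 1 mice and 7.31 to 9.19 in PBS mice of series 6 without the 2 mice. With all 25 mice both interactions had an adjusted p of 0.999. Cd209e and Ccl11 are both among the C57BL/6J genes that placed mouse633 and mouse634. These mice are of series 6 and were left out because of their values, so the interactions with 23 mice are partly built in. List medians in series 5 and in series 6 without the 2 mice (with them in brackets) were 0.04 and 0.90 (0.61) for eosinophil genes and 0.23 and 1.08 (0.83) for CC chemokines. They were 0.51 and 1.29 (0.92) for alternatively activated macrophages, 0.59 and 0.67 (0.37) for goblet cells, and 0.47 and 0.41 (0.26) for collagens. Both mice are of series 6, so leaving them out changes only the series 6 medians. The differences between series in these medians were not tested. In series 5 alone 185 clusters passed. In series 6 alone 0 passed in limma with both mice (1850 at an unadjusted p under 0.05) and 990 without them.

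**Figure D5:**
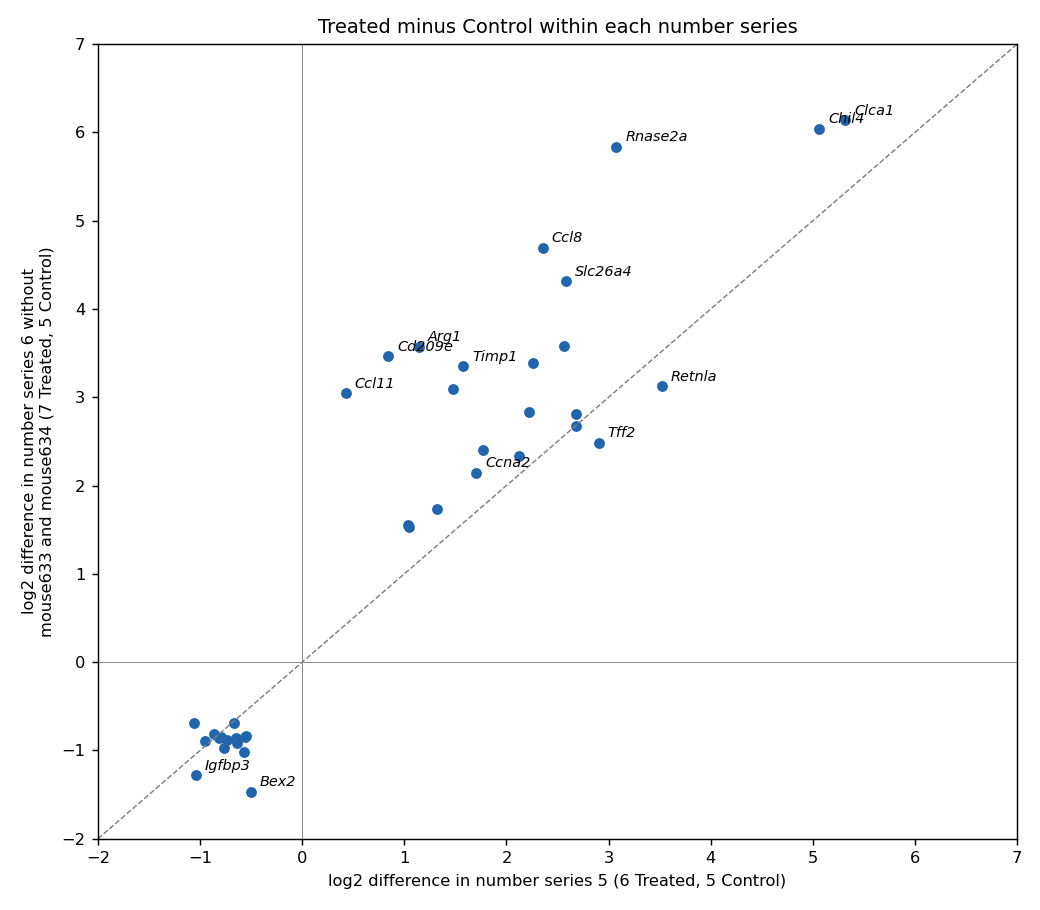
Each point is 1 named gene, with its log2 difference (Treated minus Control) in number series 5 on the horizontal axis and in number series 6 without mouse633 and mouse634 on the vertical axis; the dashed line marks equal differences. Ccl11 (0.42 and 3.04), Cd209e (0.84 and 3.47), Arg1 and Rnase2a lie above the line, and Retnla and Tff2 below it.

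In a fit of their own, 4036 clusters passed in C57BL/6J mice treated in the same way (24.1%; 12 Der p 1 and 11 PBS mice), and counts in separate fits do not test a difference between strains. An interaction of challenge and strain over all 48 mice passed in 6 of 16715 clusters (0.0359%, 2892 at an unadjusted p under 0.05), and in 7 without mouse633 and mouse634. Of the 5 that carry 1 gene symbol, Ly6i, Fbp1 and Fcrl5 had a lower response in BALB/cJ mice, and Upk1b and Azgp1 a higher one. None of these 5 genes passed within BALB/cJ with 25 mice: their differences were 0.38, 0.04, -0.04, 0.44 and 0.02. The goblet, macrophage, mitosis and collagen genes named above are not among the 6.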

How the data were processed

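The values are log2 levels that the authors deposited per transcript cluster, per the labels with Partek Genomics Suite, which summarised core exons by RMA. The software's version and the genome build are not given in the sources used here. Of 16715 clusters, 14959 carried 1 symbol in the platform's annotation, 1016 several and 740 none. The brightest cluster stood for a gene (14824 genes). Repeat arrays of a mouse, for 5 BALB/cJ mice with 3 arrays each (median SD 0.121 to 0.198 over clusters), were averaged. Arrays have no read depth; the number of mice limits the precision.

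Der p 1 minus PBS was tested in the 25 BALB/cJ mice with limma 3.58.1 in R 4.3.3, number series as covariate, with Benjamini-Hochberg adjustment over all clusters and a threshold of 0.05. Interactions with number series (25 mice) and with strain (48 mice) were tested likewise. Scripts were tested on simulated data. Mice of a group are separate animals. Named were, among clusters past the threshold, the 15 with the largest rise and the 15 with the largest fall, up to 10 with the widest gap between groups, up to 6 per interaction, and members of 52 gene lists; a list is described by counts and its median, with no test. The mice, the genes and the lists were chosen with earlier results of these data known. Promoter letters are from RefSeq tables of GRCm38.p6, 250 bases before each start. Alternatives were another normalization, centring, the first array of a mouse, filters, priors, weights and leaving out each mouse.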

Additional observations from a re-analysis of the deposited data

Results flagged for a closer look

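Genes whose challenge response differed between strains were singled out by the interaction term of limma over 48 mice; each was tested, and no explanation was weighed. Fbp1, a gluconeogenic enzyme, had a response lower by 1.18 log2 in BALB/cJ than in C57BL/6J (-1.18 ± 0.20, adjusted p = 0.00342): 0.04 in BALB/cJ and 1.22 in C57BL/6J. Ly6i, a surface antigen of the Ly6 family, gave -1.69 ± 0.34 (adjusted p = 0.0288), from 0.38 in BALB/cJ and 2.07 in C57BL/6J, and lost the call without mouse633 and mouse634 (adjusted p = 0.0515). For Upk1b, a uroplakin that mesothelium expresses as well, the interaction was 1.41 ± 0.26 (adjusted p = 0.0109). Its response was 0.44 in BALB/cJ and -0.97 in C57BL/6J. Upk1b is in the mesothelial list, of which 0 of 8 genes passed in BALB/cJ with all mice. Without mouse633 and mouse634, 1 gene of this list fell. Fcrl5, an Fc receptor-like gene of B cells, had -0.74 ± 0.14 (adjusted p = 0.0109), from -0.04 and 0.69. Azgp1 had 1.11 ± 0.23 (adjusted p = 0.0288), from 0.02 in BALB/cJ and -1.10 in C57BL/6J. Fcrl5 and Azgp1 were dim in BALB/cJ mice of both groups (3.83 to 5.31 in all), a level at which background and expression cannot be separated in these values.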

How the results depend on the processing

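With 25 mice 404 clusters rose and 109 fell. The total stayed within 1.5 times of theirs under quantile normalization again (437 and 222), centring (346 and 158), the first array of each mouse (464 in all), leaving out the dimmest 25% (535), a trended robust prior (520) and all 48 mice (436 and 102). It was 264 with no number series term, 1434 without mouse633 and mouse634, 1578 with array weights, 1003 with the SD of each mouse as covariate, 185 in series 5 alone, 0 in series 6 alone and 990 in series 6 without the 2 mice. It ranged from 261 to 1035 when 1 mouse was left out. Without mouse633 and mouse634, the count of 1434 became 927 with no series term and 1494 to 2095 under 3 other settings, and ranged from 1110 to 1986 without 1 more mouse; these settings were chosen after seeing the data. The interaction with number series passed in 0 clusters with 25 mice and 2 with 23. The 30 largest rises and falls kept their direction in every setting, and calls were lost by 7 of them with no series term, 13 in series 5 alone, 30 in series 6 alone, 3 in series 6 without the 2 mice, 2 with the first array, 2 with the trended robust prior and 1 with all 48 mice. Over the 25 fits without 1 mouse, these 30 genes lost 117 calls in all. Causes were not tested. Of 1976 list medians under these settings, 19 moved by over 1 SD of the PBS mice. That SD includes mouse633, which widens it in lists where mouse633 lay apart from the other PBS mice. For the mitosis list the SD was 0.48, with mouse633 at 6.67 and the other PBS mice at 4.95 to 5.28. A change of its median from 0.95 with 25 mice to 1.20 with 23 thus did not count as moved. The low count of 19 is partly built in by this choice. No paired analysis was possible because a mouse has 1 treatment and 1 lung, the repeat numbers in the titles count arrays of a mouse, and no label links a mouse of one group to one of the other. Low values near background limit what can be said of Chil4, Rnase2a and Ccl8 in PBS mice. Other named genes were dim as well in PBS mice other than mouse633: Agr2 (4.26 to 4.96), Slc26a4 (4.63 to 5.06) and Arg1 (4.96 to 5.51). Pbk (4.60 to 5.47) and Ckap2 (4.07 to 4.60) were likewise dim, so this limit is not confined to 3 genes.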

Other observations

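Calls in gene groups not described above were as follows, with 25 mice unless stated. Over all clusters 2.42% rose and 0.652% fell with 25 mice, and 5.06% rose and 3.52% fell among 23 mice. Of 23 airway ion transport genes 3 rose and 0 fell: besides Slc26a4, the sodium-glucose carrier Slc5a1 (1.14 ± 0.26; 6.29, 7.50 and 8.96 in Der p 1 mice and 6.07, 6.41 and 8.63 in PBS mice) and the water and glycerol channel Aqp3 (0.74 ± 0.16), each past the threshold in every fit without 1 mouse. Cftr differed by -0.42 (adjusted p = 0.0525) and passed only among 23 mice (-0.47). Of 30 eicosanoid genes 4 rose and 1 fell: Alox15, the prostaglandin E synthase Ptges (0.53 ± 0.12), the thromboxane synthase Tbxas1 (0.64 ± 0.17) and the receptor Ptger4 (0.47 ± 0.12) rose and Ptgfr fell. Tbxas1 and Ptger4 lost their calls in 14 and 12 of 25 fits without 1 mouse (highest adjusted p = 0.0874 and 0.0779, both without mouse620). The glutathione transferase Gsto1 rose by 0.92 ± 0.19, 1 of 2 rises among 23 antioxidant genes. Tfpi2, an inhibitor of trypsin-like proteases, rose by 0.89 ± 0.23, and lost its call without 4 mice (highest adjusted p = 0.0665, without mouse620). Among 23 Toll-like and C-type lectin receptors 2 rose, Cd209d (1.10 ± 0.27; call lost without mouse620, adjusted p = 0.0534) and Mrc1, and Tlr4 differed by 0.02. Without mouse633 and mouse634 the ion transport list had 4 rises and 2 falls, the eicosanoid list 7 and 2, the antioxidant list 4 and 2, and the Toll-like and lectin list 3 and 0. Further lists with calls were dendritic cells (2 of 15 rose, and 5 among 23 mice), club cells (2 of 15, and 3 with 2 falls), type II cells (2 of 15, and 3 with 1 fall), cathepsins and lysosome (2 of 20, and 5) and arginine and nitric oxide (1 of 12, and 2). Of 29 genes of secretion through the endoplasmic reticulum 2 rose, and 11 rose and 1 fell among 23 mice. Of 27 matricellular genes 4 rose and 1 fell, and 8 rose and 3 fell among 23 mice, and of 8 heat shock genes 1 fell, and 2 among 23 mice.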
